A study of Mus musculus with 12 samples.

Results

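The 10 immediate early genes Fos, Fosb, Jun, Junb, Egr1, Atf3, Ier2, Dusp1, Zfp36 and Myc were followed in mouse quadriceps, and all 10 were found by symbol among the 15344 genes of the deposited expression tables. RNA-Seq was available for 12 C57BL/6 mice at 6 months of age, in 3 groups of 4. The WT group was wild-type mice for which no treatment is described. The KO group was GAA Knock-out mice given PBS, and the AAV group was GAA Knock-out mice given AAV2/8-LSPhGAApA into the tail vein (2e12 vg/kg). The vector carries human GAA under a liver-specific promoter, so it is meant for expression in liver and not in muscle, and both KO and AAV mice are labelled as GAA Knock-out. No injection is described for WT mice, so genotype and injection cannot be told apart between KO and WT. The comparisons ask how this gene group differed in the diseased muscle and after the liver-directed vector.

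Immediate early genes are switched on within minutes of a stimulus, without new protein synthesis, by transcription factors that are already present and are activated by MAP kinases, calcium and cAMP. Most encode transcription factors: Fos and Jun proteins pair to form AP-1, and Egr1 is a zinc finger activator. Others shut the response down again, as the phosphatase Dusp1 does for MAP kinases and Zfp36 does for unstable mRNAs. In muscle they are known to respond to contraction, stretch, injury and handling of the tissue, and their mRNAs are short-lived. The time from death to RNA extraction is not given in the sources used here.

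The promoters are shown because the members have in common that preformed factors, among them CREB at cAMP response elements, act on them. RefSeq windows (GRCm38.p6) were used for 7 of the 10 genes, and the 250 bases before the transcription start are printed for 4 of them. These are Junb as the member with the lowest adjusted p, Atf3 as another member that was lower in KO, and Fos and Dusp1 with several matches. Junb lies at chr8:84978749-84978998 (− strand), Atf3 at chr1:191183334-191183583 (− strand), Fos at chr12:85473640-85473889 (+ strand) and Dusp1 at chr17:26508473-26508722 (− strand). Capitals mark the cAMP response element TGACGTCA, its short form TGACG and, in Fos, the TATA box TATAAA, each searched on both strands.
Junb: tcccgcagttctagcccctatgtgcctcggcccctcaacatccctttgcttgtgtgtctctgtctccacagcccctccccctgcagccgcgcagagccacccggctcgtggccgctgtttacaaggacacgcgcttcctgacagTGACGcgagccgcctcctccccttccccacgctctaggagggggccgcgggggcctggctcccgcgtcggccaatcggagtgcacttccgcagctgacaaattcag
Atf3: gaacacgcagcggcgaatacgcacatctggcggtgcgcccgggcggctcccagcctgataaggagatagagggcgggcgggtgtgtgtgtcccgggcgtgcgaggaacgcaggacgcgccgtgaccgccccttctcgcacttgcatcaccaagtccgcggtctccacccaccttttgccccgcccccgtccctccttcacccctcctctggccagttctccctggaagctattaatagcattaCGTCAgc
Fos: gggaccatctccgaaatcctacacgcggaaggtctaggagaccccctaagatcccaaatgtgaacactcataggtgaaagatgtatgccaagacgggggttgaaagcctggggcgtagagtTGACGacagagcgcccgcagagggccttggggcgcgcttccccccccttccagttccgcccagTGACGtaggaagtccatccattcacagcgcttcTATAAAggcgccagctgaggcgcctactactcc
Dusp1: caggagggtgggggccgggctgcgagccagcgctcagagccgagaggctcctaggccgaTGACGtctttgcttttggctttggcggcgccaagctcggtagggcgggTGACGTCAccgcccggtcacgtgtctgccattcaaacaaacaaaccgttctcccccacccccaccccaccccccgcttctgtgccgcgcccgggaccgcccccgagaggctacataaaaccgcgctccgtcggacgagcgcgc

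The short form TGACG stood in 5 of the 7 member promoters (Atf3, Dusp1, Fos, Fosb and Junb), against 17.8% of 32851 mouse promoters of the same length. It is also part of the full element TGACGTCA, which was found in 1 of the 7 (Dusp1) and in 1.55% of all. The AP-1 site TGANTCA was in 0 of the 7 and in 6.75% of all, the TATA box TATAAA in 1 (Fos) and in 12.4%, and the CArG box, the binding site of SRF, in 1 (Zfp36) and in 1.47%. Such matches describe these windows only, and enhancers farther away were not searched. The promoters of Egr1, Ier2 and Myc were not searched either, so these counts say nothing about them. Jun and Zfp36 had no TGACG in the window.

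The libraries held between 22122233 and 47379737 reads in genes, with 22122233 to 31974197 in AAV and 31225360 or more in the other groups, and the values are normalized counts, that is, reads divided by a size factor for each library. Gaa, the targeted gene, went against the labels. It stood at 11936 to 13075 in the libraries labelled KO and at 324, 343 and 460 in WT animals 3, 1 and 4, with 14640 in WT animal 2 and 9854 in AAV animal 4 against 500 to 947 in the other AAV animals. The source of this pattern was not tested, and the GAA activity and glycogen that the study also measured were not analysed here. Groups are therefore named by their labels throughout, every direction below rests on those labels, and results are also given without WT animal 2 and AAV animal 4. Skeletal muscle markers were high in every library, with a summed normalized count of 3.66e+06 to 6.03e+06 over 8 genes. WT animal 3 and AAV animal 3 stood apart for the genes described here, each the lowest of its group for 8 of the 10 members, and results are given without them too, a choice made after seeing the data.

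In the libraries labelled KO, 4 of the 10 members were lower than in WT: Junb, Egr1, Ier2 and Atf3. Calls required an adjusted p below 0.05 together with a log2 fold change beyond ±1 (limma on log2(normalized count + 1), Benjamini-Hochberg over 14859 genes), and 8.5% of all genes tested were called lower. The other 6 members were not called, although all 10 had log2 fold changes below 0, with a median of −0.96 against 0.02 over all genes. The groups did not overlap for 4 members (Jun, Junb, Atf3 and Ier2), with WT the higher, as for 15.1% of all genes. In bulk muscle, fewer cells of a type and less RNA per cell cannot be told apart.

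**Figure D1:**
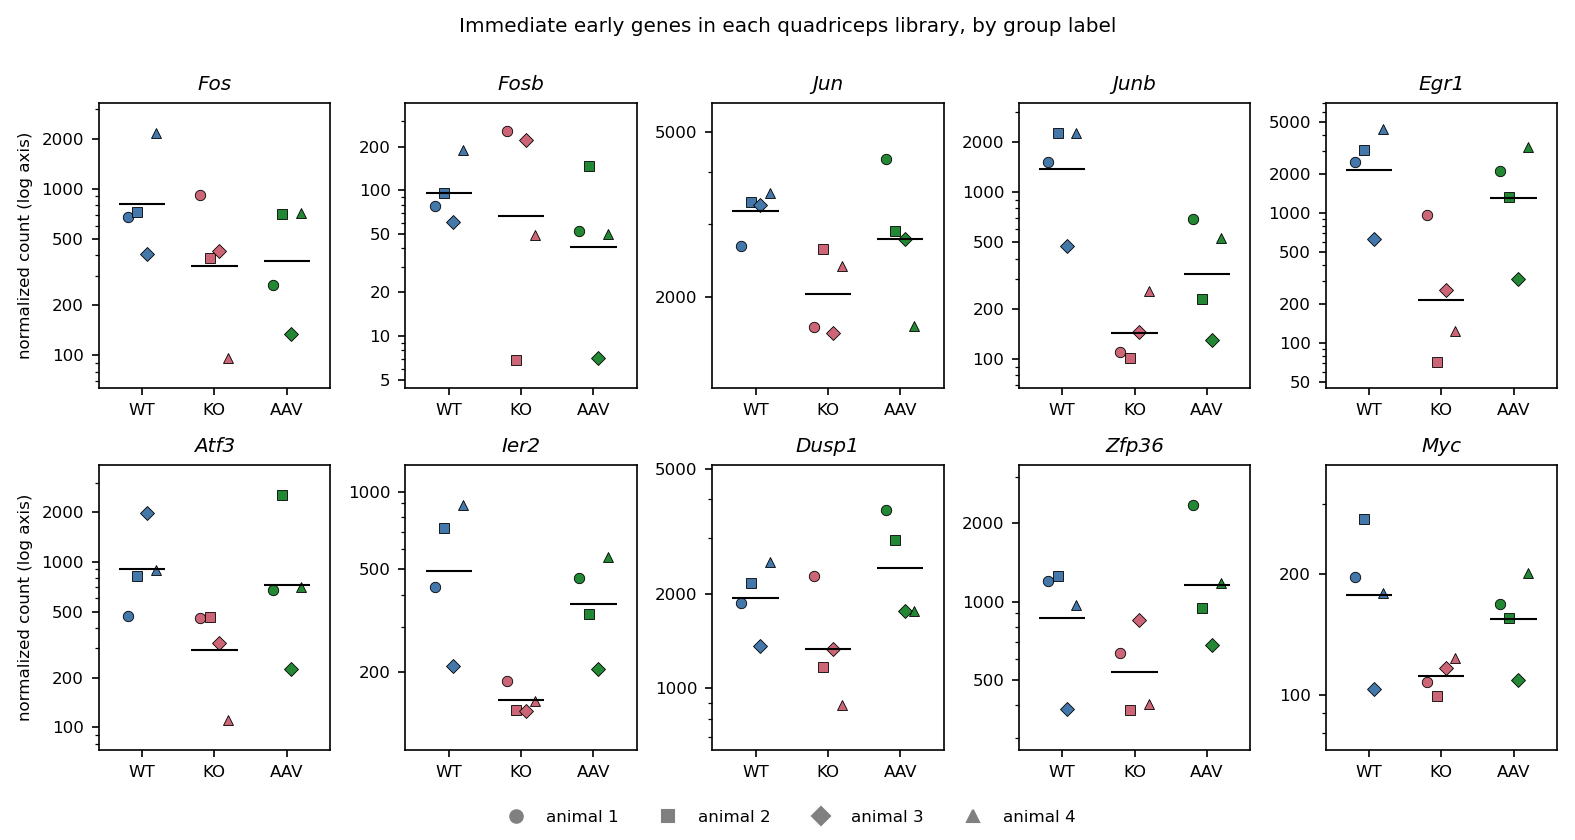
Normalized counts (log axis, a different range in each panel) of the 10 immediate early genes in each library, by group label, with the symbol marking the animal number and the bar the geometric mean of 4 animals. Junb and Ier2 had every KO animal below every WT animal, and animal 3 (diamonds) lay at the bottom of the WT and AAV groups for most genes.

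Junb (ENSMUSG00000052837, GRCm38 chromosome 8, 84974484 to 84978718, − strand) encodes a Jun protein that pairs with Fos proteins and, in adult muscle, is known to support fiber mass. Its normalized counts were 1514, 2241, 478 and 2251 in WT animals 1 to 4, against 111, 102, 145 and 255 in KO animals 1 to 4. All 4 KO animals lay below the lowest WT animal, animal 3. This gave a log2 fold change of −3.26 (SE 0.48, 95% interval −4.33 to −2.20, adjusted p = 0.00224 by limma), a 9.61-fold lower level, and an exact two-sided permutation test gave p = 0.0286, the smallest that 4 against 4 allows. The call held in all 17 alternatives, with log2 fold changes from −3.78 to −3.03. At its 3′ end Junb overlaps Prdx2 on the opposite strand, and whether reads were counted by strand is not given in the sources used here.

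Egr1, a zinc finger factor induced by growth factors and by mechanical load, had the widest range among the called members. Normalized counts were 2483, 3035, 633 and 4396 in WT animals 1 to 4 and at 960, 71.8, 255 and 124 in KO animals 1 to 4. The groups overlapped through KO animal 1, which lay above WT animal 3. Egr1 had a log2 fold change of −3.30 (SE 0.79, 95% interval −5.05 to −1.55, adjusted p = 0.0145 by limma), and the exact two-sided permutation p was 0.0571. The call held in all 17 alternatives, with adjusted p up to 0.0479.

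Ier2 (ENSMUSG00000053560, chromosome 8, 84661331 to 84662852, − strand), a gene of 1522 bases with a single exon that encodes a nuclear protein, was 428, 726, 213 and 889 in WT animals 1 to 4. In KO animals 1 to 4 it was 186, 144, 142 and 156. The KO values lay close together, with an SD of 20.0 around a mean of 157 (n = 4), and all were below WT animal 3. Ier2 had a log2 fold change of −1.65 (SE 0.38, adjusted p = 0.0127 by limma), a 3.15-fold lower level that was called in all 17 alternatives.

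Atf3 (ENSMUSG00000026628, chromosome 1, 191170296 to 191218039, − strand), a stress-induced factor of the ATF/CREB family, behaved differently between animals. Its counts were 472, 822, 1954 and 886 in WT animals 1 to 4 and 459, 463, 323 and 111 in KO animals 1 to 4. WT animal 3, the lowest WT animal for 8 members, was the highest for Atf3, and the groups were separated by the narrow gap between KO animal 2 and WT animal 1. The log2 fold change was −1.61 (SE 0.51, adjusted p = 0.0401 by limma). The call was lost in 7 of 17 alternatives, among them leaving out WT animal 2 or 4 or any of the 4 KO animals, with adjusted p of 0.0508 to 0.0862.

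Jun, the partner of Fos in AP-1, was 2658, 3392, 3328 and 3554 in WT animals 1 to 4 and 1688, 2613, 1637 and 2371 in KO animals 1 to 4. Every KO animal lay below every WT animal, by a small margin. The log2 fold change of −0.66 (SE 0.18, adjusted p = 0.0227 by limma) fell short of the fold threshold. Jun is overlapped by the antisense gene Junos, and reads of the pair may not have been told apart.

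Fos itself, the classical member, was not called. It stood at 672, 723, 406 and 2157 in WT animals 1 to 4 and at 918, 382, 423 and 96.4 in KO animals 1 to 4. KO animal 1 was above 3 of the 4 WT animals and KO animals 2 and 4 were below all of them, and the log2 fold change of −1.22 had a 95% interval from −2.69 to 0.25 (adjusted p = 0.184 by limma).

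Fosb, a Fos protein gene with few reads here, was 77.8, 96.7, 60.9 and 189 in WT animals 1 to 4 and 256, 6.84, 223 and 49.5 in KO animals 1 to 4. KO animals 1 and 3 were above all WT animals and KO animals 2 and 4 below all of them, animal 2 with only 8 reads. The log2 fold change of −0.50 (95% interval −2.63 to 1.64) had no stable sign, being 0.33 by edgeR with TMM scaling, 0.33 by DESeq2, 0.28 by edgeR with total reads and 0.55 without KO animal 2.

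The inhibitors and Myc were also not called. The annotation of Dusp1 overlaps Ergic1 on the opposite strand, and reads of this pair may not have been told apart. Dusp1, which removes phosphates from MAP kinases, ranged from 1363 to 2531 in WT and from 884 to 2274 in KO (log2 fold change −0.54, adjusted p = 0.172 by limma). Zfp36, which leads AU-rich mRNAs to decay, ranged from 387 to 1253 in WT and from 383 to 847 in KO (log2 fold change −0.69, adjusted p = 0.196), and it was called lower only where WT animal 3 was left out (−1.08, adjusted p = 0.00615). Myc, a growth regulator with Max as its partner, ranged from 103 to 274 in WT and from 99.2 to 124 in KO (log2 fold change −0.67, adjusted p = 0.0846 by limma). The groups overlapped through KO animal 1 for Dusp1 and through WT animal 3 for Zfp36 and Myc, with no overlap once that animal was set aside.

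Without WT animal 2, 3 members were called lower, as Atf3 lost its call (adjusted p = 0.0811 by limma) at a log2 fold change of −1.66. Junb, Egr1 and Ier2 stayed at log2 fold changes of −3.03, −3.13 and −1.47. Without WT animal 3, 5 members were called lower, these 3 with Atf3 and Zfp36. The share of all genes called lower was 5.59% without WT animal 2 and 12.2% without WT animal 3. Over all genes, 2070 were called between KO and WT, 1332 without WT animal 2 and 3238 without WT animal 3.

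**Figure D2:**
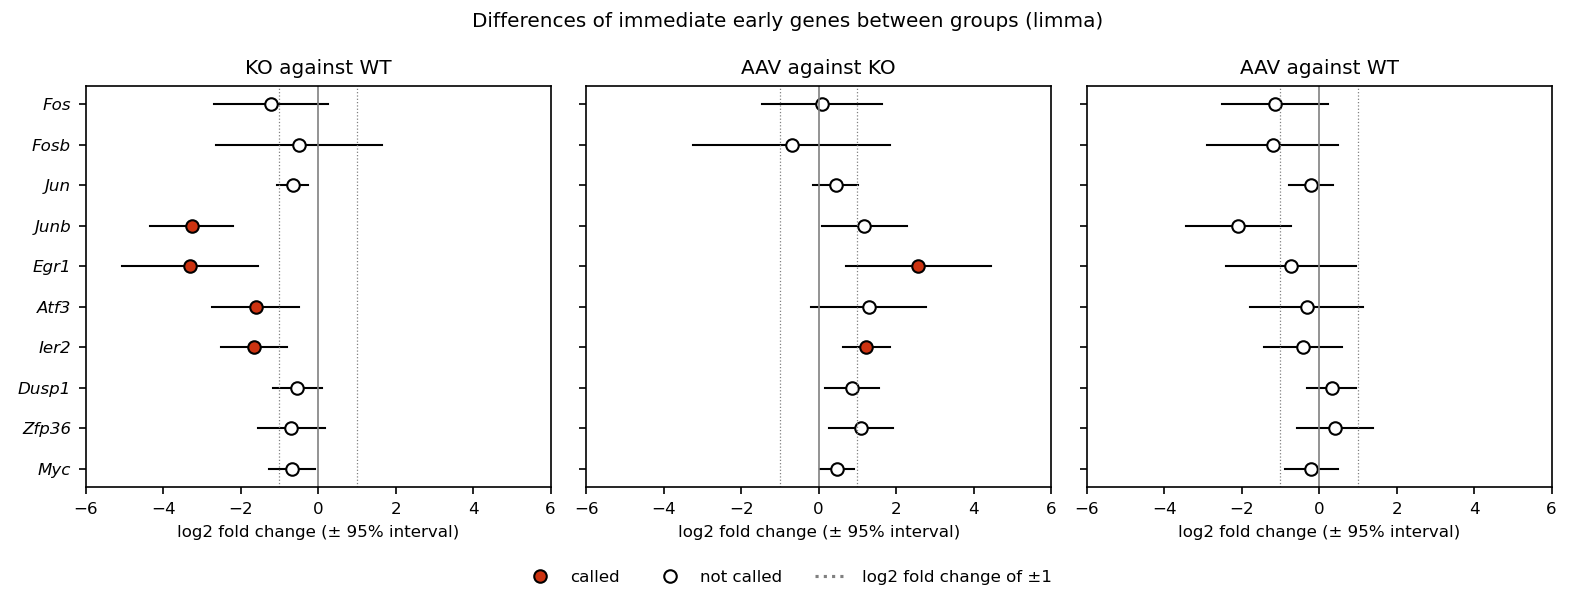
Log2 fold changes of the 10 members (points) with their 95% intervals from limma (lines) in the 3 comparisons of 4 against 4 libraries, with filled points for called genes. Junb and Egr1 lay near −3.3 between KO and WT, Egr1 and Ier2 were called higher between AAV and KO, and no member was called between AAV and WT.

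Compared with KO, 2 of the 10 members were called higher in the libraries labelled AAV, Ier2 and Egr1, against 5.43% of 14894 genes. Ier2 alone had groups that did not overlap, with AAV the higher, as for 14.8% of all genes. Of the 10 members, 9 had log2 fold changes above 0, and the median was 0.98 against 0.04 over all genes. This comparison uses the same KO libraries as the one before, so each KO value enters both and the opposite signs are not independent of each other.

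Ier2 was 463, 337, 207 and 560 in AAV animals 1 to 4, all above the highest KO animal at 186. AAV animal 3 was the closest to KO. Its log2 fold change was 1.23 (SE 0.27, 95% interval 0.62 to 1.84, adjusted p = 0.0133 by limma), a 2.34-fold higher level, and it was called in all 17 alternatives (log2 fold change 1.03 to 1.54).

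Egr1 was 2087, 1333, 313 and 3234 in AAV animals 1 to 4. AAV animals 1, 2 and 4 lay above all 4 KO animals, while animal 3 was below KO animal 1. The log2 fold change of 2.58 (SE 0.84, adjusted p = 0.0475 by limma) stood close to the threshold and was lost in 11 of 17 alternatives, including DESeq2 (2.29, adjusted p = 0.0519) and edgeR with TMM scaling (2.28, adjusted p = 0.0685). Without AAV animal 4 it was 2.14 (adjusted p = 0.102 by limma), so that 1 member was called higher, against 4.31% of all genes. Without AAV animal 3 the log2 fold change of Egr1 was 3.26 (adjusted p = 0.0104 by limma).

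Leaving out AAV animal 3 added calls. Without it, 7.91% of all genes and 6 members were called higher in AAV than in KO: Ier2 and Egr1 with Junb (1.61, adjusted p = 0.0159 by limma), Atf3 (1.84, adjusted p = 0.035), Zfp36 (1.35, adjusted p = 0.0175) and Dusp1 (1.01, adjusted p = 0.04). With all 8 libraries limma called none of these 4 genes, at log2 fold changes of 1.18 for Junb, 1.29 for Atf3, 1.10 for Zfp36 and 0.86 for Dusp1 and adjusted p of 0.102, 0.172, 0.0511 and 0.0683. Other settings that kept AAV animal 3 called 3 of the 4. Zfp36 was called by edgeR with TMM (1.15, adjusted p = 0.0488), DESeq2 (1.17, adjusted p = 0.00929) and edgeR with total reads (1.38, adjusted p = 0.0356) and without KO animal 3 (1.32, adjusted p = 0.0419). Junb was called by DESeq2 (1.36, adjusted p = 0.016) and edgeR with total reads (1.60, adjusted p = 0.0486), and Dusp1 by edgeR with total reads (1.02, adjusted p = 0.0425) and without KO animal 1 (1.11, adjusted p = 0.0361). Atf3 was called only where AAV animal 3 was left out.

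Junb was 689, 230, 131 and 532 in AAV animals 1 to 4. Animals 1 and 4 lay above all KO animals, and animals 2 and 3 within the KO range. Atf3 was 673, 2525, 227 and 708, with animals 1, 2 and 4 above and animal 3 within the KO range. Zfp36 was 2343, 943, 680 and 1177, and animal 3 alone lay below the highest KO animal. Dusp1 was 3684, 2954, 1762 and 1760, with only animals 1 and 2 above KO animal 1.

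The Fos family genes Fos and Fosb were not called. Fos was 263, 707, 135 and 717 in AAV animals 1 to 4 and Fosb was 52.4, 148, 7.09 and 50.5, both within the KO range. The log2 fold changes were 0.08 for Fos (95% interval −1.47 to 1.63) and −0.70 for Fosb (−3.24 to 1.84), neither of which had a stable sign. Jun ranged from 1698 to 4315 in AAV and Myc had a mean of 158 ± 38.3 (SD, n = 4), with log2 fold changes of 0.44 (adjusted p = 0.229 by limma) and 0.47 (adjusted p = 0.103).

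Against the libraries labelled WT, no member (0 of 10) was called in AAV by limma, where 0.951% of 14939 genes were called, and 1 member, Junb, had an unadjusted p under 0.05. Junb had a log2 fold change of −2.09 (SE 0.61, 95% interval −3.44 to −0.74, adjusted p = 0.126). AAV animals 1 and 4 lay above WT animal 3 and below the other WT animals. Junb was called by DESeq2 (−2.02, adjusted p = 0.00704), in a limma fit of all 12 libraries (adjusted p = 0.0474) and without WT animal 3 (−2.60, adjusted p = 0.0342 by limma). It was also called by limma with the replicate block and without both WT animal 3 and AAV animal 3. By edgeR it was not called (adjusted p = 0.127 with TMM). The 95% intervals of the other members held differences of at least 1 log2 unit in one direction, apart from Jun (−0.78 to 0.34), Dusp1 (−0.30 to 0.94) and Myc (−0.88 to 0.48), so that differences of that size between AAV and WT remain possible for most members.

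Levels can be compared between genes only per length of their exons. Per kb, Jun had the highest mean level in each group, with 1014 ± 124 normalized counts (SD, n = 4) in WT, 651 ± 154 in KO and 913 ± 337 in AAV. Other members reached into its range in each group. In WT these were Junb, Egr1, Fos and Atf3 (up to 978, 980, 917 and 907 per kb), and in KO Dusp1 (up to 687). In AAV they were Atf3, Dusp1, Egr1 and Zfp36 (up to 1172, 1113, 721 and 675). Fosb was the lowest with 17.0 ± 9.17, 21.4 ± 19.9 and 10.3 ± 9.53, and in KO it overlapped Myc, the next gene up (36.5 to 45.6). Junb followed Jun in WT with 704 ± 364 per kb and came eighth in KO with 66.5 ± 30.5. In KO its range (44.2 to 111) overlapped those of Egr1, Ier2, Atf3, Fos, Zfp36 and Myc. Dusp1 followed Jun in KO (428 ± 182) and in AAV (767 ± 286). In WT the ranges of Junb, Dusp1, Egr1, Atf3 and Fos overlapped, and their order is not separated by the spread between animals.

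The members differed between animals of the same group more than most genes. The pooled SD within groups, on the log2 scale of normalized counts, had a median of 0.82 over the 10 members and of 0.34 over 15154 genes, and 8 of the 10 lay above the 90th percentile of 500 genes of like level. Fosb (1.74), Egr1 (1.44), Fos (1.19) and Atf3 (1.11) varied most, and Jun (0.39) and Myc (0.41) least. The spread was not alike across groups: Ier2 had an SD of 0.92 in WT, 0.18 in KO and 0.63 in AAV, while Fosb had 0.70, 2.35 and 1.75. For Egr1 the highest animal exceeded the lowest by 6.94-fold in WT, 13.4-fold in KO and 10.3-fold in AAV.

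**Figure D3:**
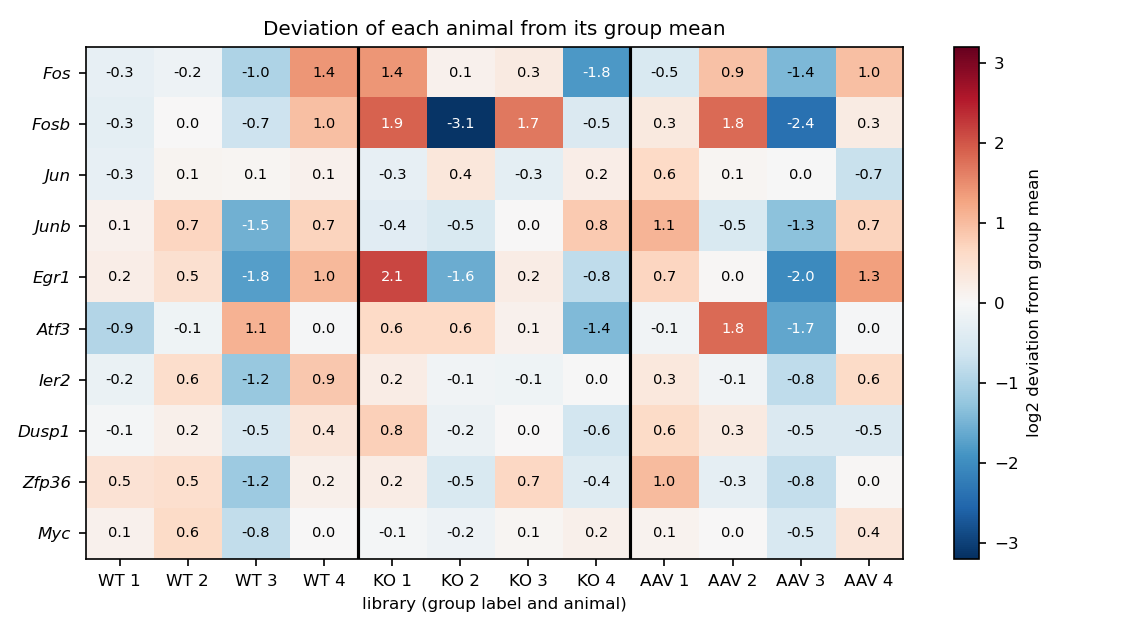
Log2 deviation of each library from the mean of its group, for each member (rows) and library (columns), with red above and blue below the group mean. WT animal 3 and AAV animal 3 were blue for most members, whereas each KO animal had deviations of both signs.

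The same animals tended to be high or low for many members. WT animal 3 was lowest for 8 members and WT animal 4 highest for 7, with mean deviations over the 10 members of −0.74 and 0.57 log2 units. AAV animal 3 was lowest for 8 members, with a mean deviation of −1.14. In KO no animal held such a place: animal 1 was highest for 5 members (Fos, Fosb, Egr1, Ier2 and Dusp1) and animal 2 lowest for 5, with mean deviations of 0.67 and −0.50.

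Over the 12 libraries, with group means removed, the 45 pairs of members had a median Pearson r of 0.39, ranging from −0.37 to 0.85, and 21 of them (46.7%) reached 0.5. Over pairs of all 15154 genes the median was 0.00 and 15.7% reached 0.5. These correlations are descriptions over 12 libraries that share group means and size factors. The median r fell to 0.15 without WT animal 3 and AAV animal 3 and to 0.23 without AAV animal 3 alone. Without WT animal 2 and AAV animal 4 it was 0.47.

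Within the 10 genes the pairs were uneven. Junb, Ier2, Myc, Zfp36 and Egr1 gave 10 pairs with r from 0.61 to 0.85, led by Junb with Ier2 (r = 0.85, rho = 0.73, and r = 0.60 without the 2 libraries farthest from the median of Junb). Without WT animal 3 and AAV animal 3 the median of these pairs went from 0.73 to 0.29. Fos, Fosb, Egr1 and Dusp1 gave 6 pairs with r from 0.59 to 0.77, led by Fosb with Egr1 (r = 0.77, rho = 0.74, and 0.58 without the 2 farthest libraries), and their median went only from 0.66 to 0.53. Both groups of genes were picked out after the values were seen.

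Jun moved with none of the others, with r from −0.37 (Fos) to 0.22 (Dusp1). Atf3 went with Fos (r = 0.58, rho = 0.50) and had r of −0.27 with Junb, −0.01 with Ier2 and 0.18 with Egr1. Single libraries moved these values. The Atf3 and Fos pair had r = 0.15 without the 2 libraries farthest from the median of Fos, 0.81 without WT animal 3 and 0.74 without WT animal 3 and AAV animal 3. Atf3 and Ier2 had 0.41 without WT animal 3 and −0.42 without AAV animal 3, Atf3 and Junb −0.04 and −0.83, and Atf3 and Egr1 0.45 and −0.20. Fos and Junb, which can pair as proteins, had r = 0.18 over 12 libraries and −0.56 without WT animal 3 and AAV animal 3.

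**Figure D4:**
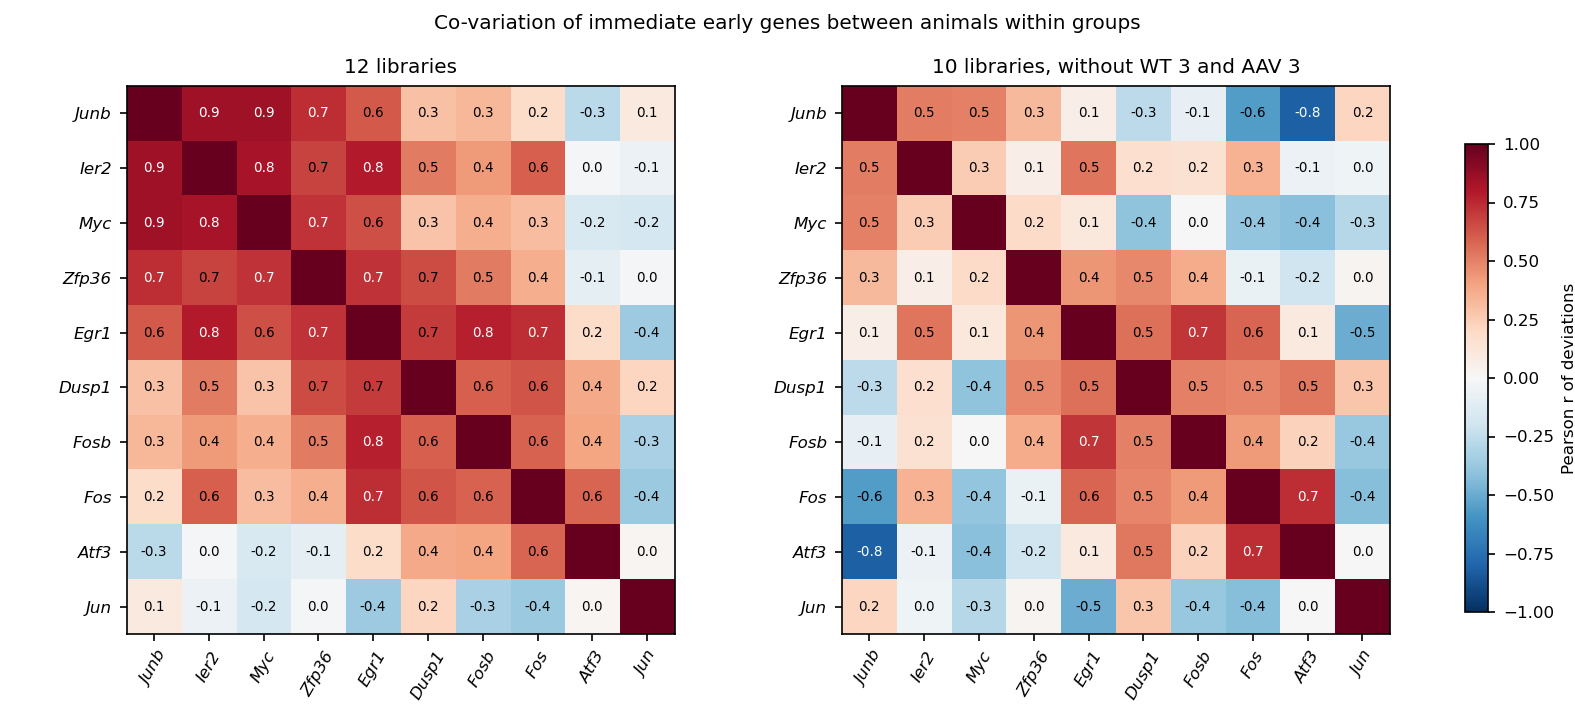
Pearson r of within-group deviations for each pair of members, over all 12 libraries (left) and over the 10 that remain without WT animal 3 and AAV animal 3 (right). The block of Junb, Ier2, Myc, Zfp36 and Egr1 faded when these libraries were left out, and the block of Egr1, Dusp1, Fosb and Fos kept r of at least 0.43.

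The genes whose deviations were most like the mean deviation of the members were sought among 11061 genes with a mean normalized count of at least 50 (median r −0.07). The 10 highest were Fbxl20 (r = 0.94), Nfatc2 (0.92), Apbb1ip (0.92), Fbxo4 (0.91), Il17ra (0.90), Maff (0.90), Col23a1 (0.89), Ctgf (0.89), Slc43a2 (0.88) and Ccnl1 (0.88), over 12 libraries. Fbxl20 and Nfatc2 kept r of 0.93 and 0.88 without WT animal 3 and AAV animal 3, the others 0.60 to 0.81. Maff, a small Maf factor, and Ctgf, a matrix protein gene induced by SRF and YAP, are themselves rapid response genes. Of the 10, Maff, Col23a1, Ctgf and Slc43a2 were called lower in KO than in WT, against 8.5% of all genes. In AAV against KO, Maff, Col23a1 and Slc43a2 were called higher (log2 fold changes 1.09, 1.48 and 1.21), against 5.43% of all genes. The 10 were picked by their correlation in these same libraries.

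Markers of some other cell types co-varied with some members within groups. The summed normalized count of 8 macrophage markers ranged from 1378 to 4562 in WT, 772 to 1373 in KO and 804 to 4137 in AAV, with the lowest values of WT and AAV in animals 3. None of the 8 was at 0 in any library, and Cd68, a lysosomal macrophage protein, was 560, 590, 69.8 and 568 in WT animals 1 to 4 and 28.2 to 36.7 in KO. Cd163, a scavenger receptor of resident macrophages, ran the other way, with 73.3, 68.0, 119 and 93.6 in WT animals 1 to 4 and 109 to 192 in KO, and was not called (log2 fold change 0.79, adjusted p = 0.0344 by limma). In KO against WT, 6 of the 8 were called lower, against 8.5% of all genes. In AAV against KO 0 of 8 were called by limma (3 at an unadjusted p under 0.05), 2 by edgeR and 3 by DESeq2. Of 14894 genes, these tools called 1338, 1418 and 1543, and 6122 had an unadjusted p under 0.05 by limma. Within groups the summed level had r of 0.82 with Ier2, 0.73 with Egr1, 0.68 with Junb and 0.07 with Atf3 over 12 libraries.

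Endothelial markers went the other way, with 3 of 7 called higher in KO than in WT by limma, against 5.43% of all genes. In that comparison edgeR and DESeq2 each called 2. By limma, 1 was called lower in AAV than in KO (3.55% of all genes) and 1 higher in AAV than in WT (0.73%). The endothelial sums were 2584 to 5905 in WT, 5766 to 7497 in KO and 5303 to 7961 in AAV. Their summed level had r of −0.88 with Junb, −0.85 with Ier2, −0.54 with Egr1 and 0.48 with Atf3. Smooth muscle and pericyte markers had 2 of 6 called higher and 1 lower in KO than in WT, against 5.43% and 8.5% of all genes. In AAV against KO, 1 was called higher (5.43% of all genes). Their r was −0.81 with Junb, −0.89 with Ier2 and 0.33 with Atf3. Their sums were 5629 to 12314 in WT, 13023 to 15741 in KO and 9072 to 14924 in AAV. Fibroblast markers, 0 of 6 of which were called by limma, edgeR or DESeq2 (2 at an unadjusted p under 0.05 in KO against WT), had r of 0.67 with Egr1, 0.45 with Ier2, 0.39 with Atf3 and 0.37 with Junb. Satellite cell markers, 0 of 5 of which were called by limma, edgeR or DESeq2 in any comparison (2 at an unadjusted p under 0.05 in KO against WT), had r of 0.81 with Egr1, 0.79 with Ier2, 0.49 with Junb and 0.31 with Atf3. Over all genes, 6300 of 14859 had an unadjusted p under 0.05 by limma in KO against WT. Of the skeletal muscle markers, 2 of 8 were called lower in KO than in WT and 2 higher in AAV than in KO, against 8.5% and 5.43% of all genes. Red blood cell markers had 2 of 4 called higher in AAV than in KO by limma, edgeR and DESeq2, against 5.43%, 6.12% and 6.87% of all genes. Their sums were 1269 to 1773 in WT, 170 to 1786 in KO and 1395 to 3853 in AAV, and their r with the member mean was −0.02. Schwann cell markers also had r of −0.02 with the member mean. None of the r values of markers was taken without WT animal 3 and AAV animal 3. The part of these cell types in the differences of the members was not tested.

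Other genes of the response were read from lists chosen with earlier results of these data known. Of the other AP-1 and EGR factors, Fosl1, Egr3, Batf and Batf3 passed the filter in KO against WT only through WT, and Fosl1, Batf and Batf3 passed in AAV against KO only through AAV, since every KO value was below 10, so they are left out of the counts. Of the other 5 genes, 3 were called lower in KO than in WT (Jund, Maff and Egr2), with a median log2 fold change of −1.69, and 2 (Jund and Maff) were called higher in AAV than in KO. Over all genes 8.5% were lower and 5.43% higher, respectively. The 3 lower genes became 2 by edgeR, with the replicate block and without any one of WT animals 1, 2 and 4 or KO animals 2, 3 and 4, and the median was −0.82 over the 4 genes with a mean of at least 50. Both higher calls were lost with the replicate block and without KO animal 1 or 2 or AAV animal 1 or 2, 1 was lost without KO animal 3 or 4 or AAV animal 4, and 3 genes were called by DESeq2 and without AAV animal 3.

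Fosl1, the Fos family member known from injured and growing tissue, was 132, 158, 28.4 and 131 in WT animals 1 to 4 and 1.93, 0.86, 1.09 and 0 in KO animals 1 to 4. AAV animals 1 to 4 had 74.4, 36.2, 21.3 and 117. All KO values were at 0 to 2 counts, so a fold is not given, and its difference stands as a description. Jund, the steadily expressed Jun protein gene, was 1313 to 3966 in WT, 205 to 411 in KO and 468 to 1879 in AAV, with no overlap between KO and either group. Its log2 fold changes were −2.83 (SE 0.33, adjusted p = 8.47e-04 by limma) and 1.36 (SE 0.39, adjusted p = 0.0313). Maff went from a mean of 267 in WT to 78.8 in KO and 177 in AAV.

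Of 38 other immediate early and rapid response genes, Ptgs2, the inducible cyclooxygenase, passed the filter only through WT or AAV, with at most 4.83 in KO. Of the other 37, 11 were called lower and 4 higher in KO than in WT, and 8 higher and 4 lower in AAV than in KO. Over all genes these shares were 8.5% and 5.43%, and 5.43% and 3.55%. With single libraries left out, the lower genes in KO numbered 7 (without WT animal 2 or 4 or KO animal 4) to 14 (without WT animal 3) and the higher ones 1 (without WT animal 2 or KO animal 1 or 2) to 4, with 2 without WT animal 1 and by edgeR. In AAV against KO, 4 (without KO animal 4 or AAV animal 1) to 10 (without AAV animal 3) were higher and 1 (without AAV animal 1) to 4 lower, with 2 lower without KO animal 1 or 2 or AAV animal 2. Rrad, a small GTPase that restrains calcium channels, had the lowest adjusted p of the list in both. It was 1227, 1582, 597 and 1604 in WT animals 1 to 4, 73.4, 55.6, 59.8 and 46.9 in KO and 788, 650, 181 and 1338 in AAV. No KO animal reached the other groups, and the log2 fold changes were −4.30 (SE 0.30, adjusted p = 5.60e-05 by limma) and 3.33 (SE 0.50, adjusted p = 0.00361).

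Arc, an activity-regulated gene best known from neurons, followed the same order with means of 565 ± 358, 49.2 ± 11.3 and 400 ± 250 (SD, n = 4) in WT, KO and AAV. Gadd45a, a stress gene that rises when muscle loses its nerve supply, ranged from 1104 to 4763 in WT, 301 to 462 in KO and 698 to 2496 in AAV. Socs3, the feedback inhibitor of cytokine receptors, was called lower in KO than in WT (log2 fold change −2.74, adjusted p = 5.84e-04 by limma), with 1.35 between AAV and KO (adjusted p = 0.164).

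Sgk1, a kinase of the insulin and glucocorticoid pathways, was 1 of the 4 genes called higher in KO than in WT. It was 1911 to 2806 in WT, 3942 to 7012 in KO and 2123 to 3255 in AAV, so every KO animal lay above all others. The log2 fold changes were 1.27 (SE 0.19, adjusted p = 0.00263 by limma) and −1.19 (SE 0.19, adjusted p = 0.00491). Between AAV and WT, 1 gene of the list was called, Ier5l (log2 fold change −2.17, adjusted p = 0.0478 by limma). That call was lost in 11 of 19 alternatives, among them edgeR, no filter on low values, the replicate block and the fits without WT animal 1, 2 or 4 or AAV animal 2, 3 or 4.

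Of 14 feedback inhibitors, the MAP kinase phosphatases Dusp2, Dusp4 and Dusp5 were called lower in KO than in WT and higher in AAV than in KO, against 8.5% and 5.43% of all genes. Dusp4 had means of 534 ± 290, 31.9 ± 5.33 and 260 ± 203 in WT, KO and AAV, with log2 fold changes of −3.70 (adjusted p = 0.0025 by limma) and 2.59 (adjusted p = 0.0103). Dusp5 and Dusp2 had log2 fold changes of −3.59 and −3.54 in KO against WT and of 2.66 and 2.21 in AAV against KO, where the Dusp2 call was lost in 4 of 17 alternatives, without KO animal 1, 2 or 3 or AAV animal 1.

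Of 20 upstream kinases and SRF, TCF and CREB factors, 0 were called in KO against WT or in AAV against KO by limma, edgeR or DESeq2. At an unadjusted p under 0.05 there were 11 and 12, and at an adjusted p under 0.05 there were 4 and 10, all with a fold below the threshold. Over all genes, limma called 13.9% and 8.98%, and 6300 of 14859 and 6122 of 14894 had an unadjusted p under 0.05. Without WT animal 3, 2 were called higher in KO than in WT, and without AAV animal 3, 1 was called lower in AAV than in KO. With all libraries, the median log2 fold changes of the list were 0.28, with 16 of 20 above 0, and −0.32, with 15 of 20 below 0. Of 9 Myc partners and antagonists, Mycl1 passed the filter only through KO in both comparisons. Of the other 8, 0 were called in either comparison by the same tools. With Mycl1 included, 1 and 2 of the 9 had an unadjusted p under 0.05 by limma.

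**Figure D5:**
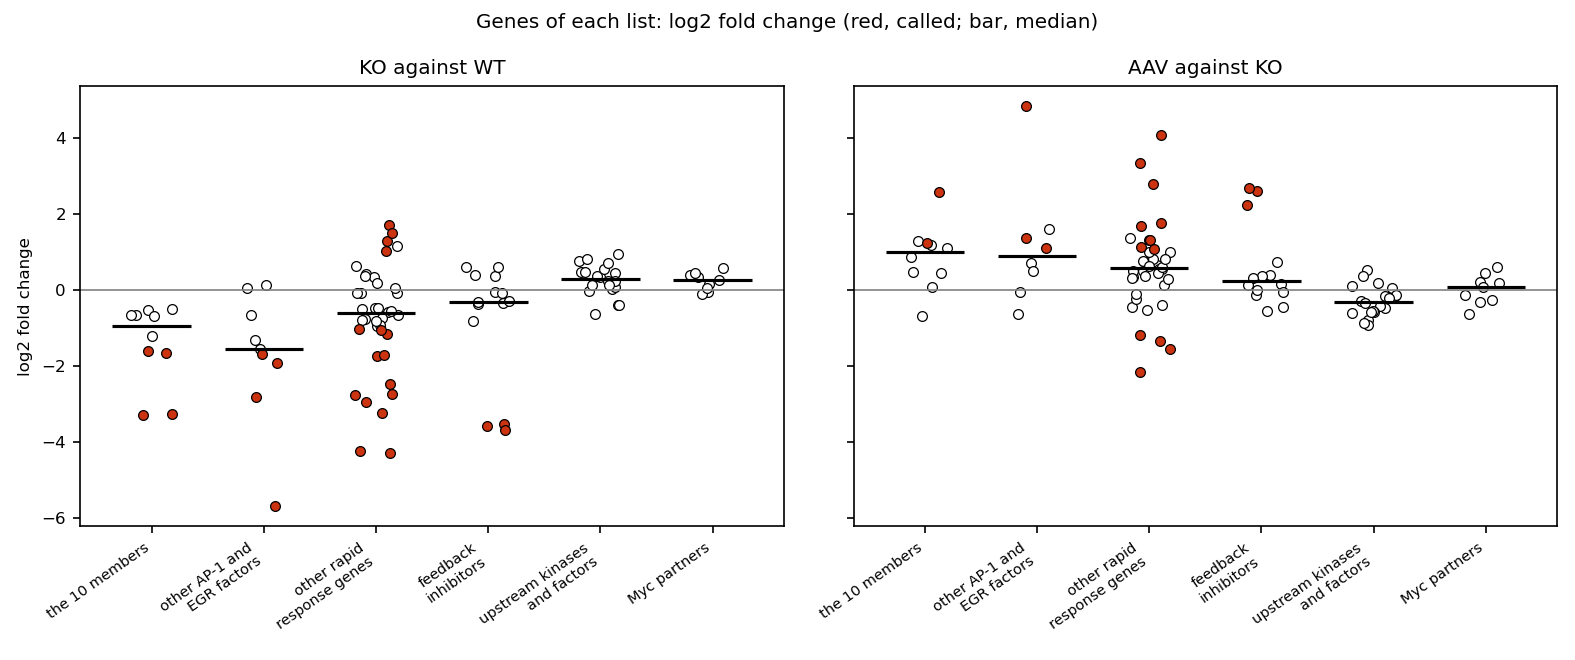
Log2 fold changes (points, one for each gene) in KO against WT and AAV against KO for the 10 members and the 5 lists of related genes, with called genes in red and the list median as a bar. Points and bars include genes that passed the filter only through 1 group (Fosl1, Egr3, Batf, Batf3, Ptgs2 and Mycl1), which the counts in the text leave out. Fosl1 aside, the called AP-1 and EGR factors and feedback inhibitors were below 0 on the left and above 0 on the right. With all libraries no upstream kinase or factor was called.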

How the data were processed

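RNA-Seq of quadriceps was analysed for 12 mice grouped by their labels. For the normalized count signal in the deposited tables, the authors trimmed reads with Trim Galore 0.4.1, mapped them to GRCm38 with STAR, dropped reads with several locations, made gene counts with HTSeq 0.6.1, left out genes that reached 10 reads in no library and divided by DESeq2 1.16.1 size factors. The deposited signal gave whole reads, within 0.1 of a read, for 100% of values. The tables also hold the authors' log2 fold changes, their errors, the test score and p-values, which were not used. KO values differed by 0 between the tables, so AAV and WT were compared on 1 scale. No per-sample column was left out (0).

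Limma 3.58.1 with a trend was run on log2(normalized count + 1) over genes that reached 10 in at least 1 of the 8 libraries, and p-values were adjusted by Benjamini-Hochberg. edgeR 4.0.16 and DESeq2 1.42.0 on the recovered reads, other scalings, filters, pseudocounts of 0.1 and 10, a replicate block, all 12 libraries in one fit and libraries left out were alternatives, and the fits were tested on simulated data. Coordinates came from GENCODE M21 on GRCm38 and promoters from RefSeq. The software was R 4.3.3 and Python 3.11.15.

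Genes named were the members, Gaa, up to 3 called genes with the lowest adjusted p of each list and comparison, and the 10 genes most like the members in their deviations. Other names were added after values were seen. The members and lists were chosen with earlier results of these data known. Read numbers limit precision for Fosb, which had 6 to 265 reads, while the other members had 84 or more. Proteins and the promoters of Egr1, Ier2 and Myc as members were not used here. No promoter window was available for Ier2 and Myc, while Egr1 was left out of the search by choice.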

Additional observations from a re-analysis of the deposited data

Results flagged for a closer look

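Among 33 sets of 4 libraries (the 10 members and Gaa in each group), chance would flag about 5%, and 2 had a single library far from the others. Both were Gaa. In WT, animal 2 had a normalized count of 14640, and its gap to the next animal was 0.99 of the range of the group. In AAV, animal 4 had 9854, with a gap of 0.952 of the range. For the members themselves no library stood as far from its group in any of the 30 sets, Fos in WT animal 4 and Atf3 in AAV animal 2 included.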

How the results depend on the processing

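Junb, Egr1 and Ier2 in KO against WT and Ier2 in AAV against KO were called in every alternative run, and Atf3 and Egr1 respectively were not. Members called in KO against WT numbered 3 to 5 against 4. In AAV against KO, where 2 were called, there was 1 with the replicate block, in the fit of all 12 libraries and without WT animal 2 and AAV animal 4, 4 by edgeR with total reads and 6 without WT animal 3 and AAV animal 3, and 1 to 6 with each library left out. In AAV against WT, where 0 were called, there was 1 (Junb) by DESeq2, with the replicate block, in the fit of all 12 and without WT animal 3 and AAV animal 3, and 0 to 1 with each library left out.

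Genes called in KO against WT numbered 2070, with 1314 at a mean of at least 50, 1332 without WT animal 2, 3238 without WT animal 3 and 1332 to 3238 with each library left out. In AAV against KO there were 1338, with 787 at a mean of at least 50 and 787 to 1966 with each library left out. In AAV against WT there were 142, with 417 by DESeq2, 231 by edgeR with total reads (126 with TMM), 398 in the fit of all 12, 10 without WT animal 2 and AAV animal 4 and 18 to 330 with each library left out. In AAV against KO, edgeR gave 911 higher and 507 lower genes with TMM and 1302 and 332 with total reads, against 809 and 529 by limma, and the median over all genes was 0.23 by edgeR with total reads and 0.04 by limma.

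Signs changed for uncalled members. In KO against WT Fosb was 0.33 by edgeR, 0.33 by DESeq2 and 0.28 by edgeR with total reads, and −1.13 to 0.55 with each library left out. In AAV against KO Fos was −0.021 by edgeR, −0.011 by DESeq2 and −0.24 without WT animal 2 and AAV animal 4, and −0.53 to 0.56 with each library left out, and Fosb was 0.10 without WT animal 3 and AAV animal 3, and −1.74 to 0.10 with each left out. In AAV against WT Jun was 0.042 without WT animal 2 and AAV animal 4, and −0.43 to 0.016 with each left out. Atf3 was 0.013 by edgeR, 0.20 by edgeR with total reads and 0.60 without WT animal 3 and AAV animal 3, and −0.92 to 0.23 with each left out, and Myc was −0.46 to 0.0068 with each left out. The causes were not tested. The median r of the pairs was 0.39, 0.47 without WT animal 2 and AAV animal 4, 0.15 without WT animal 3 and AAV animal 3 and 0.23 to 0.50 with each library left out.

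Replicate numbers name different animals. The deviations of animals with the same number had r from −0.36 to 0.56. The highest were between AAV and WT, for animals 3 (0.56) and 4 (0.49). Whether animals with the same number share anything was not tested. The replicate block gave 1830, 1003 and 120 called genes.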
